A study of Mus musculus with 10 samples.

Results

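The genes described here are 8 genes of cholesterol synthesis and its control by SREBP2, taken from the 55359 genes of the deposited table by their symbols. *Srebf2* encodes the transcription factor SREBP2, and *Insig1* encodes a protein that holds it back. *Hmgcs1*, *Idi1*, *Fdft1*, *Sqle*, *Lss* and *Dhcr7* encode enzymes of the pathway. Their mRNA was measured by poly(A) RNA-sequencing in C2C12, a mouse myoblast cell line that fuses into myotubes when serum is lowered. Cells received 100 nM of an siRNA against *Fndc1*, a gene for a protein with fibronectin type III domains (si-*Fndc1*), or of a control siRNA (si-Control), with 5 libraries in each group. According to the sample labels, cells were grown in fetal bovine serum, transfected with RNAiMAX and collected after 4 days in horse serum, while the series text places the harvest 48 h after transfection. The labels do not say whether the libraries of a group came from separate cultures, and the methods speak of independent experiments only in general, so p-values measure the spread between these libraries, which may be technical.

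Cholesterol is built from acetyl-CoA through mevalonate, isoprenoids, squalene and lanosterol. SREBP2 is made as a membrane precursor that the escort protein SCAP carries to the Golgi, where it is cut and its active part is released to the nucleus. When sterols are plentiful, INSIG proteins keep SCAP and the precursor in the endoplasmic reticulum, and transcription of the synthesis genes is low. *Srebf2* and *Insig1* are themselves known SREBP targets, as are the enzyme genes listed here. In muscle cells cholesterol is a constituent of the membranes that join at fusion.

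The promoter windows of *Srebf2*, *Hmgcs1* and *Idi1* are shown because *Srebf2* was the one of the 8 genes that passed the test, *Hmgcs1* is a target with an established sterol element and *Idi1* had the largest fold change of the 8. The windows run from 250 bases before to 50 bases after the gene start, are taken from RefSeq on GRCm38.p6, and lie on the plus strand. Capitals mark CACCCCA, the core of a sterol regulatory element, and CCAAT, the NF-Y box,, with matches on both strands marked.
Srebf2, chr15:82147019-82147318: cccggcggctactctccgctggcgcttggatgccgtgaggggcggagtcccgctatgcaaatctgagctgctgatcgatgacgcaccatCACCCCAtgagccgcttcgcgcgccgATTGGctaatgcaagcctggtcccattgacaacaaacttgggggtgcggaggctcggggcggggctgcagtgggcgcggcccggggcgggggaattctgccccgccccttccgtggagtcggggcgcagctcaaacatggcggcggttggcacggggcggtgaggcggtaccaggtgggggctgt
Hmgcs1, chr13:119690101-119690400: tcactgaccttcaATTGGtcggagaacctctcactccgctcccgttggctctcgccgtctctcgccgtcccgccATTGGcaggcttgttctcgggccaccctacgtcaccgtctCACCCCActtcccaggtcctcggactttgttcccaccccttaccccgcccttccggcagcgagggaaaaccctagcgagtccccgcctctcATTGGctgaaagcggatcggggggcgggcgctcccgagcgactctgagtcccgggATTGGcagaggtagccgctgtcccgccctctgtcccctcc
Idi1, chr13:8885356-8885655: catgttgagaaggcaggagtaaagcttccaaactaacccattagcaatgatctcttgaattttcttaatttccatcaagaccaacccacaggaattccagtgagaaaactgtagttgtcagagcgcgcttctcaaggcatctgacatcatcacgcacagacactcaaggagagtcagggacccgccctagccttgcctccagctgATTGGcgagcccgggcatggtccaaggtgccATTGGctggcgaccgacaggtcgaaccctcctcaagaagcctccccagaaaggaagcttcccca

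Of the 8 genes, 6 had a promoter window and *Fdft1* and *Sqle* were not matched, while *Dhcr7* had several windows. These 6 genes had 8 windows. Searched on both strands, CACCCCA occurred in 2 of the 8, those of *Srebf2* and *Hmgcs1*, and in 7.62% of all 32851 promoter windows of 300 bases. In *Srebf2* it began 161 bases before the start and in *Hmgcs1* 136 bases before it. CCAAT occurred in 6 of the 8 windows, compared with 37.4% of all windows, and 4 times in *Hmgcs1*. GC boxes, the letters GGGCGG on either strand, occurred in 7 of the 8 and in 35.7% of all windows. The E-box CACGTG occurred in 1 window each of *Insig1* and *Dhcr7* and in 7.15% of all windows. The letters were chosen after these sequences had been seen, and a match describes the sequence and does not show binding.

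**Figure D1:**
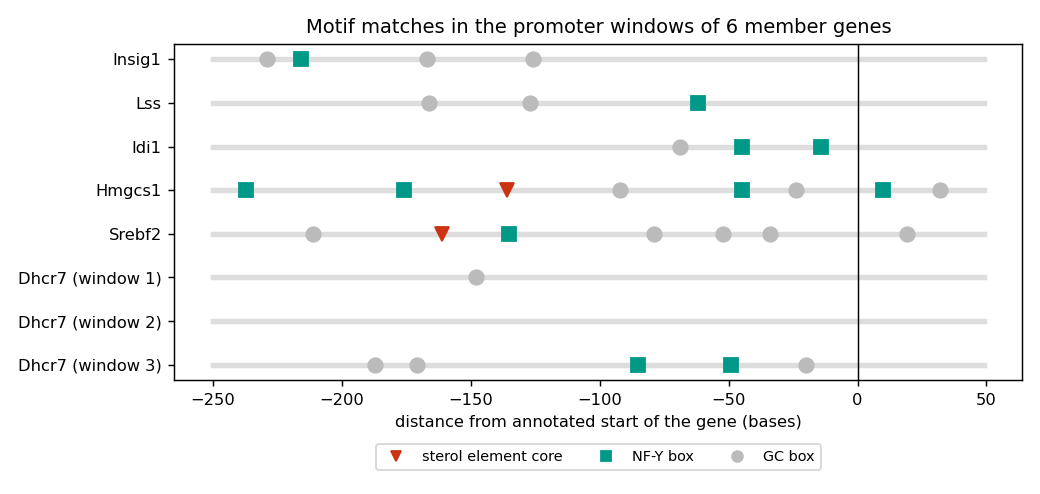
Matches of 3 motifs along the promoter windows of 6 of the 8 genes, by distance in bases from the annotated gene start on the x axis, 1 line per window and 3 windows for *Dhcr7*. Triangles mark the sterol element core, squares the NF-Y box and circles the GC box. The triangles appear in *Srebf2* and *Hmgcs1* alone.

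*Fndc1* mRNA fell in the knockdown libraries, from 27.8 ± 2.04 to 20.9 ± 1.70 FPKM (mean ± SD, n = 5 libraries each), where FPKM is the count scaled by transcript length and library size. The log2 fold change was -0.40 (edgeR quasi-likelihood adjusted p = 0.000934). Counted reads per library ranged from 66771605 to 75995168 for si-Control and from 56332844 to 72839369 for si-*Fndc1*. Muscle transcripts were abundant in both groups, with 8 markers summing to 4045 to 4521 FPKM in the controls and 3800 to 4547 FPKM after knockdown. Of these 8, 3 rose (*Ckm*, *Mymk* and *Myod1*) and 5 did not pass an adjusted p under 0.05. The marker counts here stand beside 34.4% of all tested genes called and 17.3% called higher. Of 12 hepatocyte markers, 11 were tested and all 11 rose. The sum of the 12 was 0.239 to 5.52 FPKM in the controls and 47.0 to 166.9 FPKM after knockdown. Genes were tested at a mean of at least 0.5 FPKM over all 10 libraries. Most of these markers had a control mean under that, such as *Fga* (0.028 FPKM), *Hp* (0.067 FPKM) and *Apoa1* (0.239 FPKM). They entered the test through their level after knockdown, so the count of 11 cannot be set against the share of all tested genes. *Alb* was listed at 0.0001 FPKM, the table's entry for no reads, in at least 1 si-Control library. Liver is a cholesterol-synthesizing tissue, and the part of these transcripts in the results below was not tested. Summed levels of 6 adipocyte markers (1.22 to 1.51 against 1.49 to 1.61 FPKM) and of 5 macrophage markers (0.706 to 1.26 against 0.708 to 0.991 FPKM) were low in both groups, and the 1 gene of each list that was tested did not pass. In bulk RNA, fewer cells of a type and less RNA per cell cannot be told apart.

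In the comparison of si-*Fndc1* with si-Control, which asks what changes when *Fndc1* is lowered in differentiating myoblasts, 1 of the 8 genes passed the test. *Srebf2* mRNA fell, and the 6 enzyme genes and *Insig1* did not pass. Among all 13548 tested genes, 4663 were called at an adjusted p under 0.05, which is 34.4%. Of these, 17.3% of the tested genes were higher and 17.2% lower. The median log2 fold change was 0.0018 over the 8 genes and 0.0043 over all tested genes. Separate FPKM ranges of both groups were found for 1 of the 8, against 25.1% of the tested genes.

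*Srebf2* (ENSMUSG00000022463, chr15:82031382-82089580 in the deposited coordinates, whose build the table does not name) had 67.0, 67.4, 72.7, 73.1 and 69.8 FPKM in si-Control replicates 1 to 5. The si-*Fndc1* replicates 1 to 5 had 54.4, 57.1, 55.1, 53.7 and 53.6 FPKM. Every knockdown library lay below every control library, and the groups were separated by more than either group's spread. The mean level was 70.0 ± 2.85 against 54.8 ± 1.44 FPKM (exact permutation test, two-sided p = 0.00794, the smallest that 5 against 5 allows). The fitted log2 fold change was -0.35 ± 0.035 (SE), with a 95% interval of -0.42 to -0.27 and an edgeR adjusted p of 5.27e-05, so that *Srebf2* mRNA fell by 21.3%. Counts behind these values were 24040 to 42428 per library. The microRNA gene *Mir33*, which lies in an intron of *Srebf2*, had 0 counts in all libraries of this poly(A) protocol, and *Gm49502*, annotated inside *Srebf2* on the same strand, had 55 to 159.

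**Figure D2:**
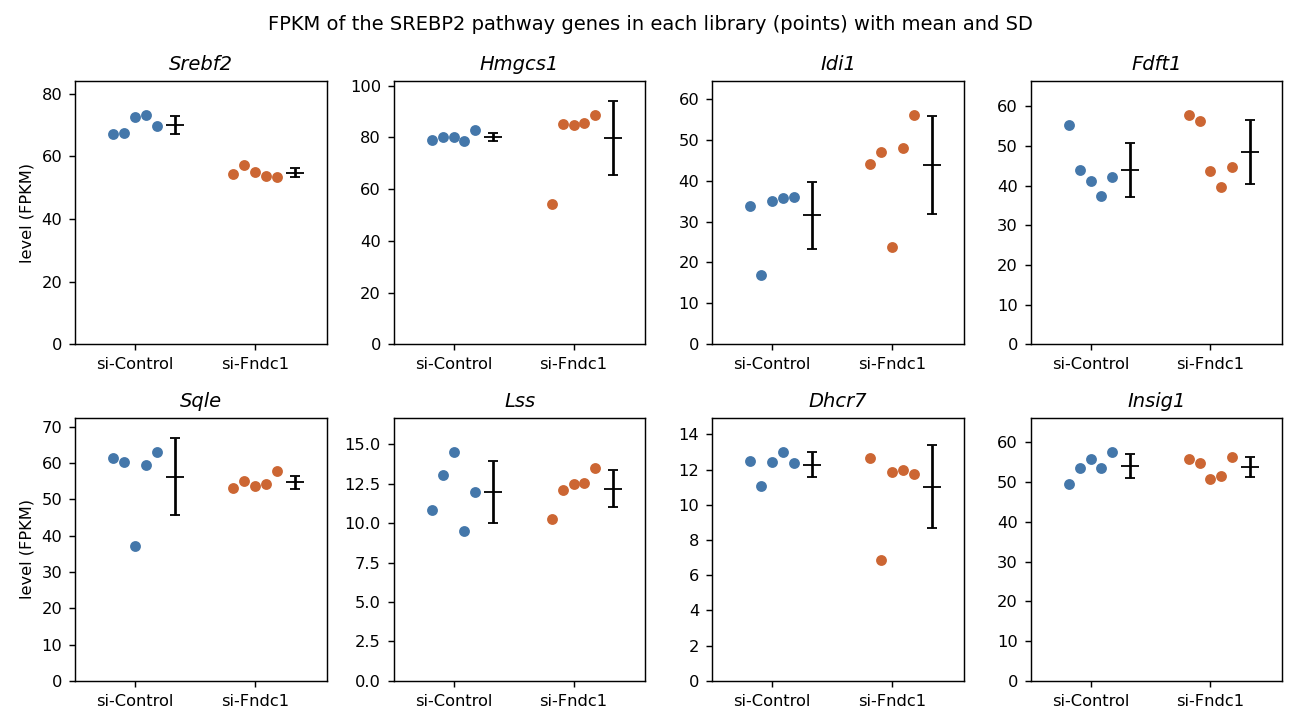
Level in FPKM (y axis, starting at 0) of the 8 genes in each of the 5 si-Control and 5 si-*Fndc1* libraries, as points in order of replicate number, with the mean and SD of each group as black bars. The *Srebf2* groups are separate, and *Hmgcs1*, *Idi1*, *Sqle* and *Dhcr7* each have a library far below the rest of its group.

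The size of the *Srebf2* difference changed when base composition was adjusted for. Over the 11185 tested genes with a GC content (82.6%), log2 fold change and GC content of the transcripts had a Spearman correlation of -0.525 across genes, which are not independent replicates. *Srebf2* transcripts had 58.3% GC, above 89.0% of these genes, and the median was 51.0%. With an offset for GC content and length fitted in each library, the log2 fold change of *Srebf2* was -0.10 (95% interval -0.15 to -0.040, edgeR adjusted p = 0.0196). Its direction and call were kept with a smaller size, but the call was lost when the replicate number was added to that fit as a block (-0.097, edgeR adjusted p = 0.0554). *Fndc1* itself had 62.5% GC, and its log2 fold change was -0.018 with the offset (edgeR adjusted p = 0.800), so that the offset also removed the fall of the targeted gene.

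**Figure D3:**
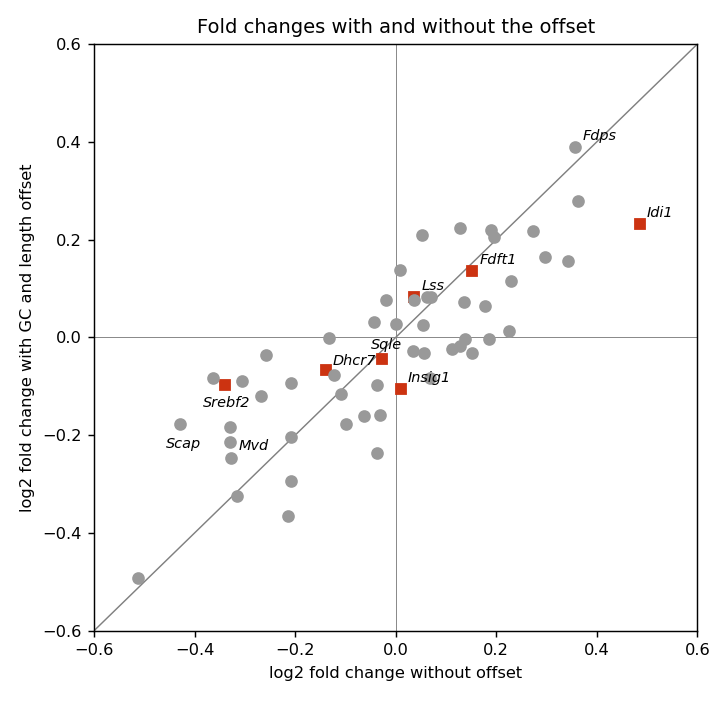
Log2 fold change of si-*Fndc1* over si-Control without (x axis) and with (y axis) an offset for GC content and length, for 58 genes of the sterol and fatty acid lists. Red squares are 7 of the 8 genes (*Hmgcs1* has no GC value) and grey circles the other genes. *Srebf2*, *Scap* and *Idi1* lie nearer to 0 on the y axis than on the x axis, whereas *Fdps* lies close to the diagonal.

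The upper pathway genes *Hmgcs1* and *Idi1* did not pass the test, and each had a library that stood apart. *Hmgcs1* encodes the cytosolic HMG-CoA synthase (ENSMUSG00000093930, chr13:120151915-120169796). Its level in si-Control replicates 1 to 5 was 79.0, 80.3, 80.1, 78.6 and 82.9 FPKM. In si-*Fndc1* it was 54.3, 85.3, 84.9, 85.6 and 88.5 FPKM. The knockdown replicates 2 to 5 were above all controls and replicate 1 was far below them, so the groups overlapped. The log2 fold change was -0.00038 with a 95% interval of -0.25 to 0.25 (edgeR adjusted p = 0.998), a range of 0.840 to 1.19 times the control. Leaving out 1 library at a time, it ranged from -0.037 to 0.11 and passed only without the low si-*Fndc1* replicate 1 (0.11, edgeR adjusted p = 0.0152).

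*Idi1* encodes isopentenyl-diphosphate isomerase (ENSMUSG00000058258, chr13:8935537-8942487). Its level was 33.8, 16.9, 35.1, 35.8 and 36.0 FPKM in si-Control replicates 1 to 5. In si-*Fndc1* it was 44.0, 46.9, 23.8, 47.9 and 56.0 FPKM. Replicate 2 of si-Control and replicate 3 of si-*Fndc1* were well below the rest of their groups, at 48.1% and 50.7% of the group medians. The other 4 knockdown libraries were all above the highest control library. The log2 fold change was 0.48 ± 0.24 (SE) with a 95% interval of -0.053 to 1.01 (edgeR adjusted p = 0.151). Leaving out 1 library at a time, it ranged from 0.32 to 0.63 and passed only without si-*Fndc1* replicate 3 (0.63, edgeR adjusted p = 0.0336). Without both low libraries, a choice made after they were seen, it was 0.48 (edgeR adjusted p = 0.00115). With the GC and length offset it was 0.23 (edgeR adjusted p = 0.544), and *Idi1* has a low GC content of 41.5%.

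The genes for squalene and lanosterol formation did not pass the test either. *Fdft1*, squalene synthase (ENSMUSG00000021273, chr14:63382599-63417027), had 55.2, 44.0, 41.2, 37.3 and 42.3 FPKM in si-Control replicates 1 to 5. It had 57.7, 56.3, 43.7, 39.7 and 44.8 FPKM in si-*Fndc1*. One control and a pair of knockdown libraries were high, and the groups overlapped. Its log2 fold change was 0.15 (95% interval -0.13 to 0.42, edgeR adjusted p = 0.399), and it ranged from 0.078 without si-*Fndc1* replicate 1 to 0.24 without si-Control replicate 1. The last 774 bases of *Fdft1* overlap *Ctsb* on the opposite strand, which had 74362 to 106667 counts against 11521 to 19226 for *Fdft1*. Whether counting used the strand is not given in the sources used here, so reads of the overlap are uncertain.

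*Sqle* encodes squalene epoxidase (ENSMUSG00000022351, chr15:59186926-59203041). It had 61.3, 60.3, 37.3, 59.4 and 63.0 FPKM in si-Control replicates 1 to 5. The si-*Fndc1* libraries had 53.2, 54.9, 53.6, 54.2 and 57.7 FPKM. All knockdown libraries were below 4 of the control libraries and above the control replicate 3. The log2 fold change was -0.033 (95% interval -0.30 to 0.23, edgeR adjusted p = 0.858). Leaving out 1 library at a time, it ranged from -0.15 to 0.012 and passed only without the low si-Control replicate 3 (-0.15, edgeR adjusted p = 0.00756). *Lss*, lanosterol synthase (ENSMUSG00000033105, chr10:76367422-76392972), ranged from 9.48 to 14.5 FPKM in si-Control and from 10.3 to 13.5 in si-*Fndc1*. Its log2 fold change was 0.031 (95% interval -0.21 to 0.27, edgeR adjusted p = 0.851).

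*Dhcr7* encodes 7-dehydrocholesterol reductase, which acts at the end of the pathway (ENSMUSG00000058454, chr7:143376882-143402147). It had 12.5, 11.1, 12.4, 13.0 and 12.4 FPKM in si-Control replicates 1 to 5. In si-*Fndc1* it had 12.7, 6.89, 11.9, 12.0 and 11.8 FPKM. Replicate 2 of si-*Fndc1* was at 58.1% of its group's median and the rest overlapped the controls. The log2 fold change was -0.15 (95% interval -0.45 to 0.16, edgeR adjusted p = 0.445), and -0.017 without that library. *Insig1* (ENSMUSG00000045294, chr5:28276361-28283660) ranged from 49.5 to 57.5 FPKM in si-Control and from 50.8 to 56.4 in si-*Fndc1*. Its log2 fold change of 0.0040 had the narrowest interval of the 7 genes that did not pass, -0.093 to 0.10 (edgeR adjusted p = 0.955), which is 0.938 to 1.07 times the control. With the GC and length offset the log2 fold change of *Insig1* was -0.107, outside that interval, and did not pass (edgeR adjusted p = 0.136).

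A single low library occurred in several of these genes. A library was counted as isolated when its FPKM was more than 25% below the next lowest library of its group, a definition set after the values were seen. Of the 8 genes, 4 had such a library in at least 1 group, against 242 of the 4343 genes (5.57%) with a mean of at least 10 FPKM. This is a description of genes chosen with results known, and no test was made. The low libraries were different ones in each case, as si-*Fndc1* replicate 1 for *Hmgcs1*, si-Control replicate 2 and si-*Fndc1* replicate 3 for *Idi1*, si-Control replicate 3 for *Sqle* and si-*Fndc1* replicate 2 for *Dhcr7*. Counting error was small beside them, since *Idi1* had 4689 counts in si-Control replicate 2 (95% Poisson interval 4556 to 4825, counting error only) and at least 9379 in the other controls. The pseudogene *Idi1-ps1* had 896 counts in that library and 739 to 927 over the control libraries. Of 11 other synthesis genes at this level, 1 had an isolated library, *Acat2*, the cytosolic thiolase, in both groups. In *Acat2* they were si-Control replicate 1 (36.8 FPKM) and si-*Fndc1* replicate 4 (28.5 FPKM).

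**Figure D4:**
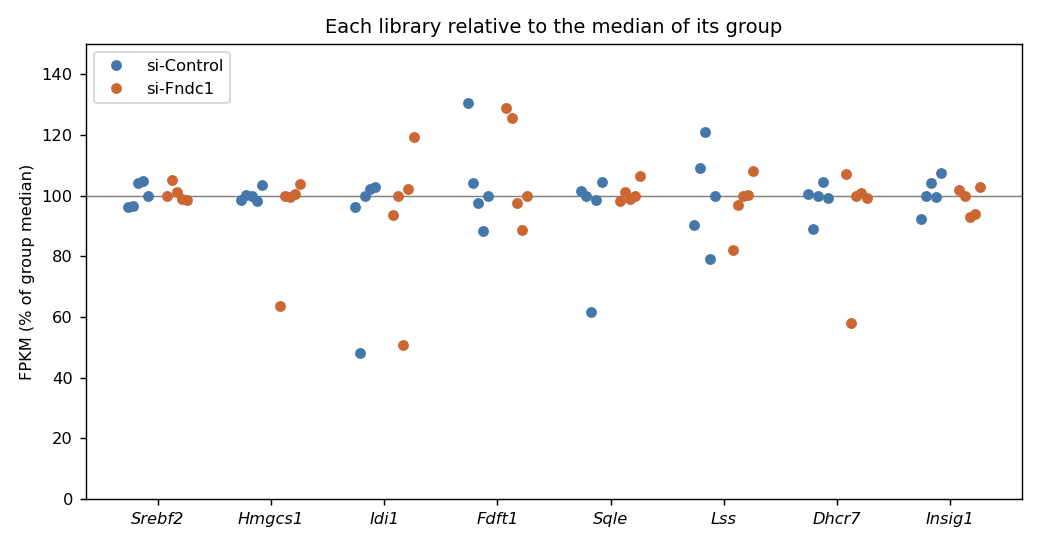
FPKM of each library as a percentage of the median of its own group (y axis, from 0) for the 8 genes, with si-Control in blue and si-*Fndc1* in orange. The isolated points at 48.1% and 50.7% belong to *Idi1*, and *Srebf2* and *Insig1* stay near 100%.

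Per length of transcript, *Hmgcs1* was the most abundant of the 8 genes in si-Control (80.2 ± 1.69 FPKM), followed by *Srebf2* (70.0 ± 2.85 FPKM), and these neighbours did not overlap. *Sqle* (56.3 ± 10.7 FPKM) and *Insig1* (53.9 ± 3.02 FPKM) overlapped, as did *Insig1* and *Fdft1* (44.0 ± 6.75 FPKM). *Idi1* came next at 31.5 ± 8.23 FPKM, separate from *Fdft1* above it. *Dhcr7* (12.3 ± 0.719 FPKM) and *Lss* (12.0 ± 1.95 FPKM) were lowest and overlapped. This order depends on the gene lengths behind the FPKM. Counts and FPKM together imply 12000 bases for *Lss*, 6473 for *Dhcr7* and 3898 for *Idi1*. By counts, *Lss* had 8258 to 12385 in si-Control and *Idi1* 4689 to 10140. Whether these lengths match the transcripts expressed in these cells was not tested. In si-*Fndc1* the order of the first 6 was the same, but the ranges of all neighbours among them overlapped.

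After the group means were subtracted, the 8 genes had correlations of both signs across the 10 libraries. Of their 28 pairs, 10 had a positive Pearson correlation of log2 library-scaled counts, and the median was -0.094. The extremes were -0.483 for *Sqle* with *Lss* and 0.537 for *Hmgcs1* with *Lss*, which are descriptions with no test. The genes outside the 8 whose residual pattern was most like the mean of the 8 were *4930402H24Rik* (r = 0.967), *Anp32e* (r = 0.934), *Gper1* (r = 0.911), *Aida* (r = 0.904) and *H2ac18* (r = 0.892), out of 13548 tested genes. Such values are the highest of a large number over 10 libraries.

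Of a further 13 enzyme genes of the same route, 5 rose, 3 fell and 5 did not pass, where 17.3% of all tested genes rose and 17.2% fell, with a median log2 fold change of 0.064 against 0.0043 for all tested genes. *Fdps*, farnesyl diphosphate synthase, rose from 43.2 ± 2.33 to 54.8 ± 2.85 FPKM, a log2 fold change of 0.35 (edgeR adjusted p = 0.000318). *Ebp*, the sterol isomerase, rose by 0.36 on the log2 scale from 47.3 to 60.3 FPKM. *Cyp51*, lanosterol demethylase, rose by 0.22, and *Nsdhl* (0.18) and *Hsd17b7* (0.13), enzymes of C4 demethylation, rose less. *Mvk*, mevalonate kinase, fell by 0.27 on the log2 scale and *Mvd*, mevalonate diphosphate decarboxylase, fell by 0.33. *Lbr*, a sterol reductase of the nuclear envelope, fell by 0.22. *Msmo1*, the C4 methylsterol oxidase, with a log2 fold change of 0.17, did not pass (edgeR adjusted p = 0.340). With the GC and length offset, 3 of the 13 rose (*Fdps*, *Ebp* and *Cyp51*) and 2 fell (*Mvd* and *Lbr*), where 23.6% of the 11185 genes in that fit were called.

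**Figure D5:**
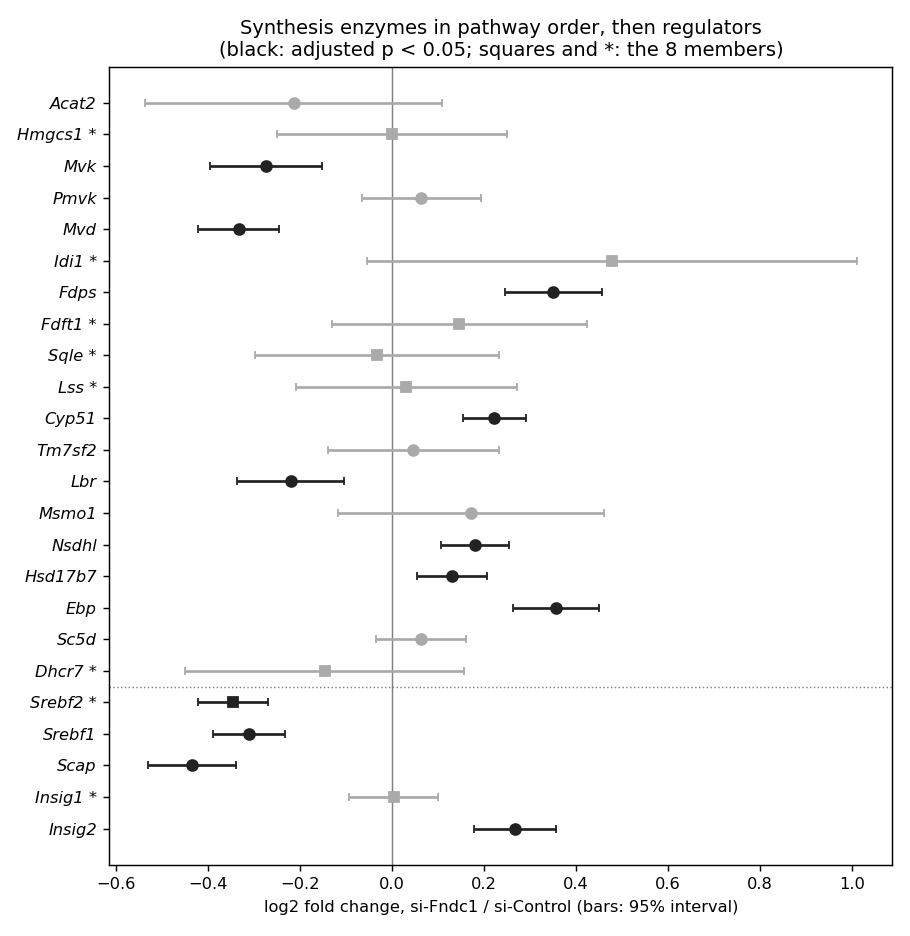
Log2 fold change of si-*Fndc1* over si-Control (x axis) with 95% intervals for the synthesis enzymes in pathway order from top to bottom, followed by regulators. Squares are the 8 genes, circles other genes, black marks an adjusted p under 0.05 and grey the rest. *Mvk* and *Mvd* lie below 0, *Fdps*, *Cyp51* and *Ebp* above it.

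Beside *Srebf2* and *Insig1*, a list of 7 genes held *Srebf1* and genes for proteins that handle the SREBP precursor. Of these 7, 2 rose, 3 fell and 2 did not pass, against 34.4% of all tested genes called. *Scap* fell from 11.6 ± 0.626 to 8.57 ± 0.327 FPKM, a log2 fold change of -0.43 (edgeR adjusted p = 5.27e-05), and -0.18 with the GC and length offset (edgeR adjusted p = 0.00226). *Srebf1*, which encodes the relative that favours fatty acid genes, had -0.31 (edgeR adjusted p = 0.000108), and -0.089 with the offset, which did not pass (edgeR adjusted p = 0.115). *Insig2*, the second INSIG gene, rose by 0.27 on the log2 scale, and by 0.22 with the offset. Of the ubiquitin ligases, *Rnf145* fell by 0.11 and *Rnf139* rose by 0.22. The proteases *Mbtps1* (0.0030) and *Mbtps2* (0.050) did not pass.

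The counts of the next lists stand beside 34.4% of all tested genes called. Of 4 genes of sterol transport, 2 rose and 1 fell. *Npc1*, a lysosomal sterol transporter, fell by 0.21 on the log2 scale. *Npc2* and *Stard4*, lysosomal and cytosolic sterol carriers, rose by 0.18 and 0.19. Of 8 genes of sterol sensing and efflux, 7 were tested and 4 fell, namely the transporters *Abca1* (-0.52) and *Abcg1* (-0.34), the receptor *Nr1h2* (-0.26) and the acyltransferase *Lpcat3* (-0.21). Among 12 fatty acid genes, 5 fell, *Fasn* (-0.37), *Acaca* (-0.34), *Scd2* (-0.32), *Acly* (-0.13) and *Scd1* (-0.10), and *Me1* rose by 0.29. In the isoprenoid side branches, 1 of 8 genes rose (*Nus1*, 0.15) and 7 did not pass. With the GC and length offset, several of these calls were lost, and the log2 fold changes of the genes that lost them were nearer to 0. They were 0.013 for *Rnf139*, -0.035 for *Nr1h2*, -0.076 for *Acly*, -0.084 for *Fasn*, -0.094 for *Npc1*, -0.12 for *Mvk* and 0.072 for *Hsd17b7*. *Nsdhl* (-0.0027) and *Nus1* (-0.031) changed sign and did not pass. The offset did not move every gene nearer to 0, as *Insig1* went from 0.0040 to -0.107.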

How the data were processed

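Poly(A) RNA from C2C12 cells was sequenced in 10 libraries, grouped by their labels. The authors deposited read counts per gene, not normalized, and FPKM, computed by them from counts, length and library size. The sample labels' processing notes name cutadapt 1.9, FastQC and GRCm39. The series text names STAR and mm9, and the paper TopHat, mm10 and htseq-count, so the aligner is unsettled. The deposited coordinates are not those of mm10 (GRCm38). *Srebf2* is listed at chr15:82031382-82089580, and its GRCm38.p6 promoter window lies outside that, at chr15:82147019-82147318. Which of GRCm39 and mm9 they follow was not tested. The paper speaks of fewer libraries and all 10 were used.

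Counts were tested with edgeR 4.0.16 (TMM, quasi-likelihood, R 4.3.3) in 13548 genes of mean FPKM of at least 0.5, with Benjamini-Hochberg adjustment over all of them. FPKM levels were compared by two-sided exact permutation tests (scipy 1.17.1). Alternatives included DESeq2 1.42.0, limma 3.58.1 on log2(FPKM + 1) and log2(FPKM + 0.1), and a spline offset for GC content (NCBIM37 transcripts) and length. The 20 pairs of replicates differed by more than sampling noise. Scripts were tested on simulated data. Some pathway genes are not reported here and were left out of the lists and their counts. The 8 genes and the gene lists were chosen with earlier results of these data known. Named genes are the 8, *Fndc1*, list genes past the threshold, a preset group of pathway genes, the 5 most alike and overlapping genes. Some cell type markers, *Mbtps1*, *Mbtps2*, *Acat2* and *Idi1-ps1* are named in addition.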

Additional observations from a re-analysis of the deposited data

Results flagged for a closer look

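Among the 8 genes, 4 of 16 groups of 5 libraries held a library whose gap to the next exceeded Dixon's 95% critical value (0.71), and the same 4 of 30 groups when *Fndc1* and 6 other named pathway genes were included. Chance gives about 1 in 20 groups, and over all tested genes 1970 of 27096 groups (7.27%) held one. The genes were chosen with results known, and the counts are a description. *Hmgcs1* was 54.29 FPKM in si-*Fndc1* replicate 1, with the next library at 84.9. *Idi1* was 16.88 FPKM in si-Control replicate 2, with the next at 33.8. *Sqle* was 37.27 FPKM in si-Control replicate 3, with the next at 59.4. *Dhcr7* was 6.891 FPKM in si-*Fndc1* replicate 2, with the next at 11.8. The cause was not tested.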

How the results depend on the processing

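Replicate numbers did not pair the libraries, since same-numbered deviations correlated from -0.043 to 0.055 and number 3 alone was its own best partner. With the replicate block, 3572 genes were called in place of 4663, 1 of the 8 genes stayed called and the values of *Hsd17b7* (0.13) and *Scd1* (-0.11) no longer passed. The GC and length offset called 2639 of 11185 genes, against 4244 of the same genes without it, and 1760 with the replicate block as well. With the offset and the replicate block, 0 of 7 of the genes with a GC value were called, 0 lower, and *Srebf2* was -0.097 (adjusted p = 0.0554, edgeR). Of the 13 further synthesis genes, 5 were called with the offset, 3 higher and 2 lower, and likewise with the block. Of 38 genes of the other lists, 11 were called with offset and block, 7 lower, against 19 and 13. The offset turned *Insig1* to -0.107 (-0.106 with the block), *Nsdhl* to -0.0027 (-0.0028) and *Nus1* to -0.031 (-0.031).

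Leaving out 1 library at a time, 1 to 2 of the 8 genes were called, 0 to 1 higher and 1 to 2 lower. Without si-Control replicate 2 and si-*Fndc1* replicate 3, chosen after the data were seen, 2 were called, 1 higher. Upper-quartile scaling gave *Hmgcs1* 0.017, and limma gave *Insig1* -0.0026 on log2(FPKM + 0.1) and -0.058 on quantile-normalized log2(FPKM + 1). These genes lay near 0 and did not pass in either setting. Leaving out 1 library moved *Fdft1* between 0.078 and 0.243, *Dhcr7* between -0.199 and -0.017, *Hmgcs1* between -0.037 and 0.112, *Idi1* between 0.319 and 0.635, *Sqle* between -0.150 and 0.012, *Lss* between -0.043 and 0.109 and *Insig1* between -0.025 and 0.029 on the log2 scale. Without both of the low *Idi1* libraries, *Idi1* was 0.476 and *Sqle* 0.00077. The ratio of mean FPKM moved between 0.967 and 1.07 for *Hmgcs1*, 1.24 and 1.54 for *Idi1*, 0.897 and 1.003 for *Sqle*, 0.966 and 1.07 for *Lss* and 0.978 and 1.01 for *Insig1*, which was 1.003 when library-scaled counts replaced FPKM.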
